A study of Bos taurus with 8 samples.

Results

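Genes of fatty acid oxidation and of the peroxisome were followed in the liver of Japanese Black fetal calves whose dams received low or high nutrition in gestation. The set held 50 genes, listed by their known function with earlier results of these data known, and no measured value entered the rule. They were 18 genes of mitochondrial oxidation, 4 long-chain acyl-CoA synthetases, 12 genes of peroxisomal oxidation, 11 peroxins and 5 genes of lipid handling that PPAR alpha is known to control. A gene was found on the array through the RefSeq accession of its probes. In this way 47 of the 50 genes were matched, among 12603 matched genes in all, and all 47 had a detected probe, among 10860 genes with one. CPT1A, ACSL4 and AMACR, without a match, were not analysed here.

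Liver RNA was hybridised in 1 colour to Agilent bovine arrays. The labels name 1 fetus for each array, while the design text mentions pooling of RNA by group, and the arrays are read here as 8 fetuses. The low-nutrition (LN) group was made of fetuses L5, L6, L8 and L9, whose dams were fed 60% of their nutritional requirement. The high-nutrition (HN) group was made of fetuses L1, L2, L3 and L10, whose dams were fed 120%, and no group was fed the requirement itself. All were taken 8.5 months after conception. According to the study's methods, the dams were inseminated with male-sorted semen of a single sire, and fetuses were picked by body weight, the lightest in LN and the heaviest in HN. Selection by weight and diet cannot be told apart. The LN arrays lay on 1 slide and the HN arrays on another, in separate scans, so slide, scan and nutrition cannot be told apart.

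Fatty acids are burned in mitochondria and, in part, in peroxisomes. A long-chain fatty acid is first joined to coenzyme A, crosses the inner mitochondrial membrane as a carnitine ester, and is then shortened in repeated rounds of dehydrogenation, hydration, dehydrogenation and thiolytic cleavage. Electrons of the first step pass through the electron transfer flavoprotein to the respiratory chain. Peroxisomes shorten very long and branched chains and the side chain of bile acid precursors, with oxidases that hand electrons to oxygen, and catalase removes the hydrogen peroxide. Peroxins build the organelle and import its enzymes. In liver, the nuclear receptor PPAR alpha is known to turn on many of these genes when fatty acids reach the tissue, and many of them are known to be induced around birth.

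The mean of the LN group was lower than that of the HN group for 33 of the 47 genes, and higher for 14. That is 70.2% lower, against 48.4% of all 10860 genes. The median difference over the 47 genes was -0.097 on the log2 scale (LN minus HN, in quantile-normalized intensity, which is used for every value here), and over all genes it was 0.0075. Differences were small, since 32 of the 47 lay within 0.25 of 0, and the extremes were -0.75 for ANGPTL4 and 0.34 for PEX11A. All 47 genes were well above background on every array through their representing probe, which is the detected probe of a gene with the highest mean signal.

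By limma, 0 of the 47 genes passed an adjusted p of 0.05 (lowest limma adjusted p = 0.760), as did 0 of the 33439 detected probes of the array. At an unadjusted limma p of 0.05 there were 5 of the 47 genes, or 10.6%, against 6.05% of all genes. They were ACOX2 and ACOX3, lower in LN, where 2.75% of all genes were called, and DECR1, ETFA and PEX11A, higher in LN, where 3.3% were called. The values of LN and HN did not overlap for 5 genes, against 4.14% of all genes. LN lay below HN for 3 of them, ACOX2, ACOX3 and HADH, as for 1.56% of all genes (169 of 10860). It lay above HN for 2, DECR1 and ETFA, as for 281 of the 10860 genes. A difference of -0.5 or below was seen for 2 genes, against 3.59% of all genes, and of 0.5 or above for 0 genes, against 3.08%. The number of genes at an unadjusted limma p of 0.05 was 1 without LN fetus L5 (4.75% of all genes). It was 3 without L8 (6.03%) and 3 without L9 (5.41%). Without HN fetus L1 there were 2 (5.32%), without L10 there were 3 (3.76%), and without L3 there were 8 (7.76%). The median over the 47 genes stayed below 0 without any 1 fetus, and was -0.042 without HN fetus L10.

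Of the 121 probes of these genes, 86 were lower in LN and 35 higher. At an unadjusted limma p of 0.05 there were 15 probes, or 12.4%, against 6.32% of all detected probes, with 7 lower and 8 higher, in 9 genes. More than 1 detected probe was present for 39 genes, and 8 had only 1, which cannot point in both directions. All detected probes, or the only one, were lower in LN for 28 genes and higher for 8. The probes of the other 11 pointed in both directions. These 11 were HADH, ECHS1, ACAA2, ACSL1, ACSL5, SCP2, PHYH, HACL1, PEX7, PEX14 and PEX16.

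**Figure D1:**
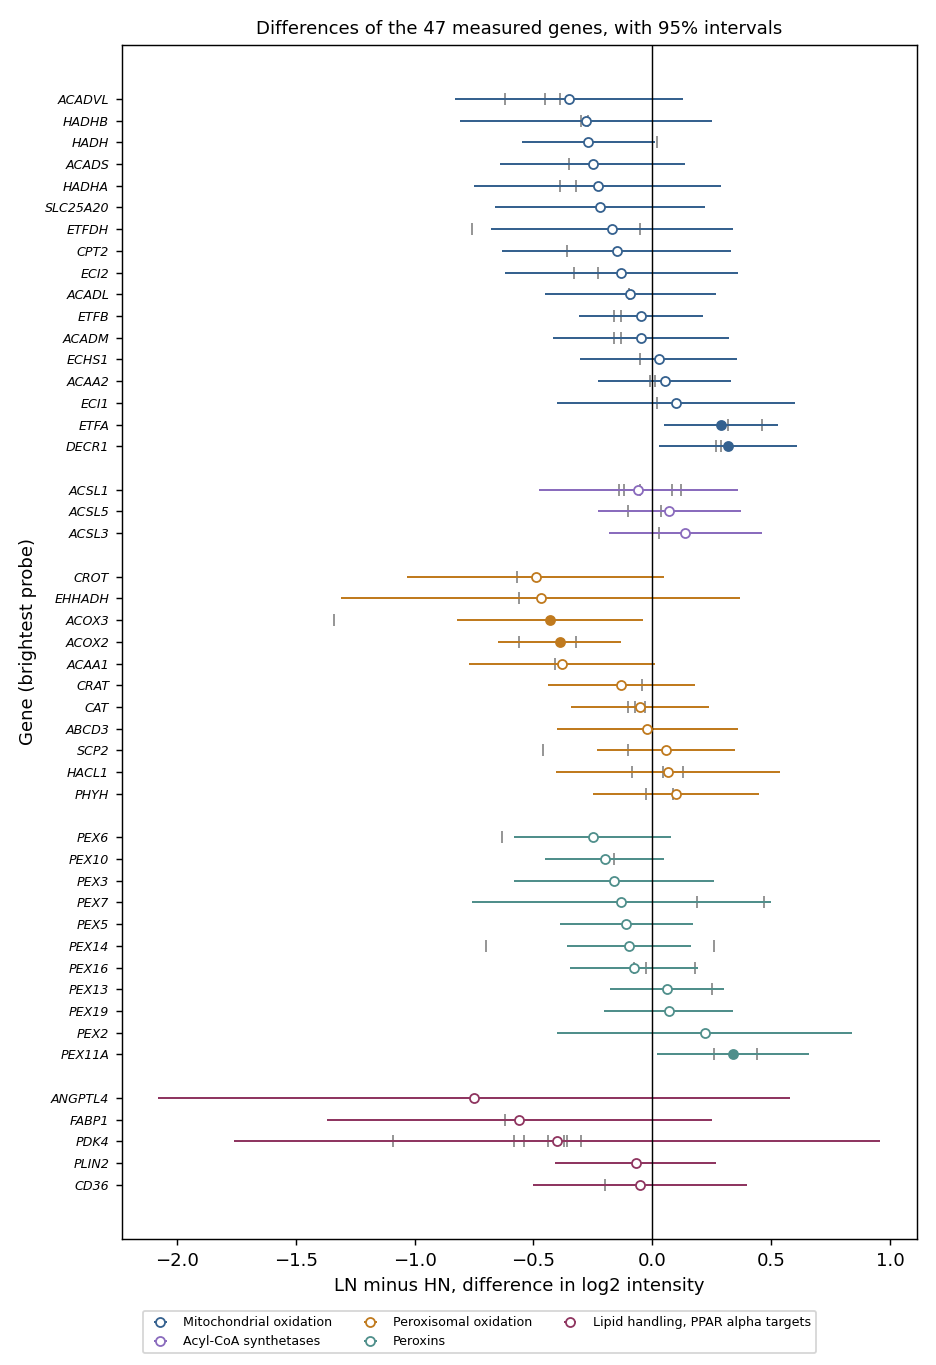
LN minus HN difference in log2 intensity for each of the 47 genes, by role. Circles are the representing probe with its 95% interval from limma, filled where the unadjusted p is at most 0.05 (ACOX2, ACOX3, DECR1, ETFA and PEX11A), and grey ticks are the other detected probes. Most circles lie left of 0, and 5 intervals leave 0 out.

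**Figure D2:**
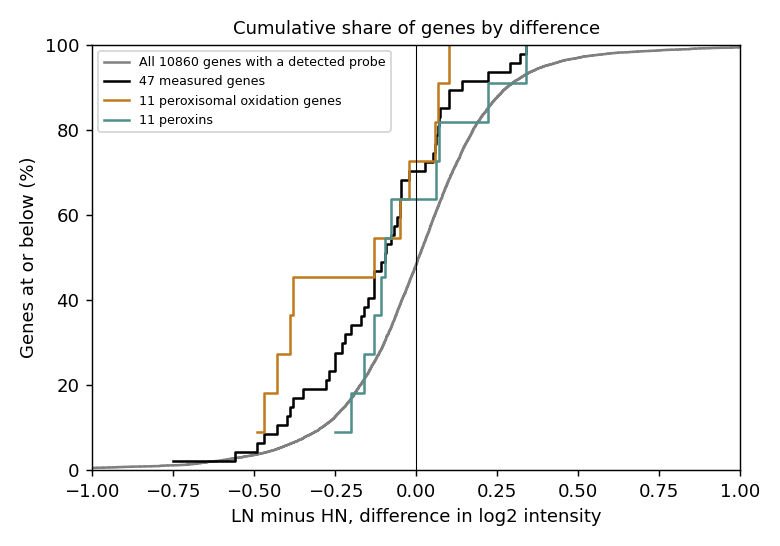
Cumulative share of genes, in percent, by LN minus HN difference in log2 intensity, drawn from -1 to 1. The curve of the 47 genes stands at 70.2% at a difference of 0 and that of all 10860 genes at 48.4%, and the 11 peroxisomal oxidation genes have 5 members below -0.25.

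Hepatocyte markers had overlapping summed levels in the groups, between 20.95 and 21.01 on the log2 scale in LN and between 20.91 and 20.99 in HN, over 10 detected genes of 11. Markers of erythroid cells and neutrophils, which the fetal liver also holds, had higher mean levels in LN. Of 12 erythroid markers, 9 were detected and all 9 had a higher mean in LN, with a median difference of 1.21 and a summed level of 13.86 to 17.09 in LN and at most 14.99 in HN. At an unadjusted limma p of 0.05 there was 1 of the 9. LN fetus L5 stood highest, at 17.09, with the other 3 LN fetuses between 13.86 and 14.60, and SLC4A1, KLF1 and EPB42 were not detected. Of 11 neutrophil markers, 10 were higher in LN, with a median of 1.27 and a summed level of 13.17 to 14.81 in LN and 11.93 to 13.28 in HN. At an unadjusted limma p of 0.05 there were 6 of the 11, and HN fetus L10 stood lowest, at 11.93. Lymphocyte markers were lower in LN for 5 of 5 detected genes (median -0.17), stellate cell markers for 6 of 9 (median -0.16) and macrophage markers for 7 of 9 (median -0.090), with 0 at an unadjusted limma p of 0.05 in these lists. Endothelial markers were lower for 3 of 7 and cholangiocyte markers for 2 of 5, where KRT7 was at that p, 0.67 higher in LN. The part of these cells in the differences of oxidation genes was not tested, and in whole liver, fewer cells of a type and less RNA per cell cannot be told apart.

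Mitochondrial oxidation genes mostly had a slightly lower mean in LN. Of 17 measured genes 12 were lower and 5 higher (DECR1, ETFA, ECI1, ACAA2 and ECHS1), and the median difference was -0.13 (range -0.35 to 0.32). At an unadjusted limma p of 0.05 there were 2 genes (11.8%, against 6.05% of all genes), DECR1 and ETFA, both higher in LN, and 0 lower. The median was -0.034 without HN fetus L10 and -0.25 without LN fetus L8.

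The carnitine shuttle was represented by SLC25A20, the carnitine-acylcarnitine carrier, and CPT2, which returns the chain to coenzyme A inside the mitochondrion. SLC25A20 differed by -0.22 (standard error, SE, 0.19) and CPT2 by -0.15 (SE 0.21), and the first was -0.11 without L9 and the second -0.044 without L6. The acyl-CoA dehydrogenases open each round for chains of different length. ACADVL, for very long chains, differed by -0.35 (SE 0.21, limma adjusted p = 0.809, exact permutation p = 0.200), and its 4 probes gave -0.62 to -0.35. The difference was -0.23 without HN fetus L10. HN fetuses L2 and L10, at 14.20 and 14.22, lay above the other 6 fetuses, which lay between 13.36 and 13.81. The dehydrogenases for shorter chains differed less, with -0.25 for ACADS (-0.12 without L10), -0.093 for ACADL and -0.048 for ACADM. ACADL ran from -0.21 without L3 to -0.009 without L10, and ACADM turned to 0.032 without L1.

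HADHA and HADHB are the subunits of the trifunctional protein, which carries out the remaining steps for long chains. Their differences were -0.23 (SE 0.23) and -0.28 (SE 0.24). HADHA ran from -0.43 without L3 to -0.12 without L6, and HADHB from -0.48 without L3 to -0.12 without L2. In both, HN fetuses L2 and L10 were the highest of the 8, and the groups overlapped, since HN fetus L3 had the lowest value of HADHB, 10.32, and matched LN fetus L6 at the lowest printed value of HADHA, 11.89.

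HADH, the hydroxyacyl-CoA dehydrogenase for short and medium chains, was 11.51, 11.42, 11.53 and 11.38 in L5, L6, L8 and L9, and 11.62, 11.69, 11.63 and 11.98 in L1, L2, L3 and L10. Every LN fetus was below every HN fetus. The difference was -0.27 (SE 0.12, unadjusted limma p = 0.0523, limma adjusted p = 0.785, exact permutation p = 0.0286). The other probe of HADH gave 0.020, so the difference rests on 1 probe. An exact permutation p of 0.0286 is the smallest that 4 against 4 fetuses can give.

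DECR1, the dienoyl-CoA reductase needed for unsaturated chains, stood at 11.47, 11.26, 11.53 and 11.47 in the LN fetuses and at 11.15, 10.88, 11.25 and 11.18 in the HN fetuses. The lowest LN fetus, L6, was just above the highest HN fetus, L3. The LN mean was 0.32 higher (SE 0.13, unadjusted limma p = 0.0329, limma adjusted p = 0.783, exact permutation p = 0.0286), and the 3 probes gave 0.27 to 0.32. Leaving out single fetuses gave 0.24 to 0.37, and the unadjusted p was above 0.05 without L5, L8, L9, L1 or L2.

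ETFA is the alpha subunit of the electron transfer flavoprotein. It was 10.69, 10.54, 10.61 and 10.54 in LN and 10.20, 10.36, 10.29 and 10.39 in HN, again with no overlap. The LN mean was 0.29 higher (SE 0.11, unadjusted limma p = 0.0244, limma adjusted p = 0.760, exact permutation p = 0.0286). All 3 probes of ETFA separated the groups, by 0.29, 0.32 and 0.46. The unadjusted p was above 0.05 without L5, L8 or L1, and it was 0.0821 by limma with the position of the array on its slide as a block. ETFB, the partner subunit, differed by -0.048 (SE 0.11) and ETFDH, which passes the electrons on to ubiquinone, by -0.17 (SE 0.23), or -0.041 without L6. Whether the difference of ETFA departs from those of its partners was not tested.

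The remaining mitochondrial genes were close to 0. The enoyl-CoA hydratase ECHS1 differed by 0.027, the thiolase ACAA2 by 0.052, and the enoyl-CoA isomerases ECI1 and ECI2 by 0.10 and -0.13. Each of these differences was smaller than its SE, and for ECHS1, ACAA2 and ECI1 the sign turned when 1 fetus was left out.

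Of the long-chain acyl-CoA synthetases, which activate fatty acids before any use, 3 were measured. ACSL1 differed by -0.058, ACSL5 by 0.072 and ACSL3 by 0.14, with SEs of 0.19, 0.13 and 0.14. The groups overlapped for each, and the 6 probes of ACSL1 ran from -0.14 to 0.12.

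Peroxisomal oxidation held the gene with the lowest unadjusted p of the 47, the oxidase ACOX2. Of 11 measured genes 8 had a lower mean in LN, with a median of -0.13 (range -0.49 to 0.10). The means of CROT, EHHADH, ACOX3, ACOX2 and ACAA1 were lower by more than 0.3 each, and both oxidases had an unadjusted p of 0.05 or less by limma, which is 2 of 11 genes (18.2%, against 6.05% of all genes). The median stayed between -0.22, without LN fetus L8, and -0.082, without LN fetus L6, when single fetuses were left out.

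ACOX2, the oxidase for branched chains and bile acid intermediates, had a log2 intensity of 12.58, 12.57, 12.70 and 12.74 in LN fetuses L5, L6, L8 and L9. In HN fetuses L1, L2, L3 and L10 it was 12.91, 13.04, 12.99 and 13.23. Every LN value was below every HN value, and the spread within a group (SD 0.087 in LN and 0.14 in HN, n = 4 each) was smaller than the gap between the means. The difference was -0.39 (SE 0.12, unadjusted limma p = 0.00795, limma adjusted p = 0.760, exact permutation p = 0.0286), so the mean was 1.31-fold lower in LN. The other probes gave -0.32, also without overlap, and -0.56, with overlap. The unadjusted p of ACOX2 was at most 0.05 under 16 of 16 alternative settings, with differences of -0.44 to -0.33. The study names ACOX2, EHHADH and ANGPTL4 from fetuses that include these, so their choice is not independent of these values.

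ACOX3, another branched-chain oxidase, was 10.31, 10.68, 10.82 and 10.82 in LN and 10.92, 10.83, 11.31 and 11.29 in HN. The groups did not overlap, but HN fetus L2 was only just above LN fetuses L8 and L9. The difference was -0.43 (SE 0.17, unadjusted limma p = 0.0334, limma adjusted p = 0.783, exact permutation p = 0.0286), or 1.35-fold. It was -0.31 without LN fetus L5, which had the lowest value of ACOX3 and the highest erythroid level, and the unadjusted p was then 0.0883. It was also above 0.05 without L6, L3 or L10. Another probe gave -1.34 with overlapping values.

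EHHADH, the peroxisomal bifunctional enzyme and a classical PPAR alpha target, was 4.79, 6.45, 5.71 and 6.01 in LN and 5.66, 5.89, 6.52 and 6.76 in HN. Its low value in L5 set much of the difference, and LN fetus L6 lay above HN fetuses L1 and L2 and below L3 and L10. The difference of -0.47 (SE 0.37, limma adjusted p = 0.853, exact permutation p = 0.371) was -0.15 without L5 and -0.71 without L6. The other probe of EHHADH gave -0.56 (unadjusted limma p = 0.0483, exact permutation p = 0.0857), also with overlap.

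CROT, which exports shortened chains as carnitine esters, differed by -0.49 (SE 0.24, unadjusted limma p = 0.0699, limma adjusted p = 0.787, exact permutation p = 0.171), and L2 and L10 were again the highest fetuses at 10.25 and 10.08. Its second probe gave -0.57 without overlap (unadjusted limma p = 0.00983, exact permutation p = 0.0286). ACAA1, the peroxisomal thiolase, differed by -0.38 (SE 0.17, unadjusted limma p = 0.0542, limma adjusted p = 0.785, exact permutation p = 0.0857), and its 2 probes were near copies of each other across fetuses. Differences in the rest of the group lay between -0.13 and 0.10. These were CRAT, the carnitine acetyltransferase, catalase (CAT), the transporter ABCD3, the thiolase and sterol carrier SCP2, and HACL1 and PHYH, which act on branched chains by alpha-oxidation. Leaving out 1 fetus turned the sign of CAT, ABCD3, SCP2, HACL1 and PHYH, and moved CRAT to -0.032 (without L6). Bile acid precursors pass through ACOX2 and SCP2, and the latter differed by 0.057 (SE 0.13), with its other probes at -0.46 and -0.10.

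**Figure D3:**
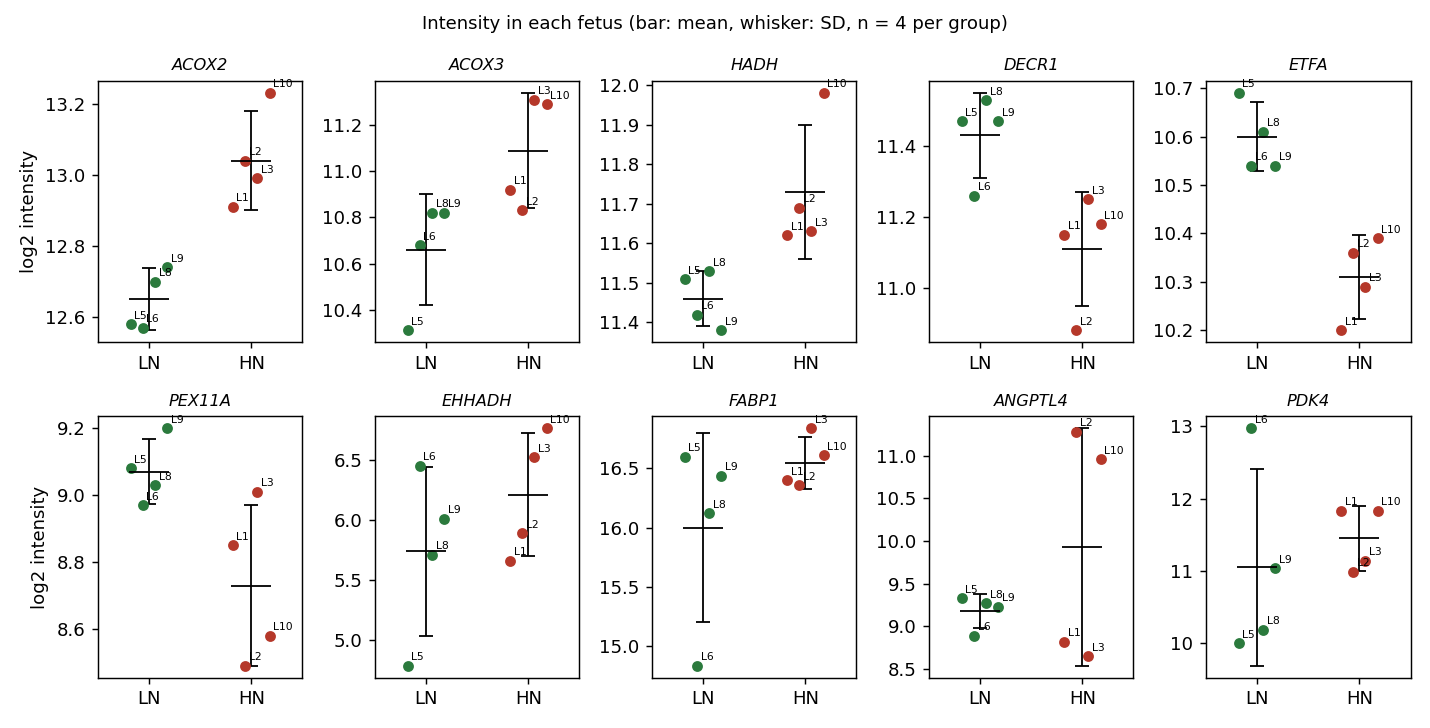
Log2 intensity of 10 genes in each of the 8 fetuses, with LN in green and HN in red, the mean as a bar and the SD as a whisker (n = 4 per group). Each panel has its own axis, which does not start at 0. ACOX2, ACOX3, HADH, DECR1 and ETFA do not overlap between the groups, while ANGPTL4 is set by L2 and L10, FABP1 is set by L6 and EHHADH by L5, and L6 is the highest fetus for PDK4.

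Peroxins lay on both sides of 0. Of 11 measured, 7 were lower and 4 higher in LN, with a median of -0.097 (range -0.25 to 0.34), and the median was -0.029 without HN fetus L10 and -8e-04 when the detected probes of each gene were averaged. PEX11A, which takes part in peroxisome elongation and division, was the exception by size. It was 9.08, 8.97, 9.03 and 9.20 in LN and 8.85, 8.49, 9.01 and 8.58 in HN. HN fetus L3 lay above LN fetus L6 and the other 3 HN fetuses lay below all of LN. The LN mean was 0.34 higher (SE 0.14, unadjusted limma p = 0.0424, limma adjusted p = 0.785, exact permutation p = 0.0571), or 1.26-fold. Its 3 probes gave 0.26, 0.34 and 0.44, and without HN fetus L2 the difference was 0.26. The unadjusted limma p of PEX11A was above 0.05 without L5, L8, L9, L1, L2 or L10, and 0.0753 with the position of the array on its slide as a block.

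The import receptors PEX5 and PEX7 differed by -0.11 and -0.13. The docking proteins PEX13 and PEX14 differed by 0.061 and -0.097, the RING proteins PEX2 and PEX10 by 0.22 and -0.20, and the ATPase PEX6 by -0.25. Proteins that place membrane components, PEX3, PEX16 and PEX19, differed by -0.16, -0.077 and 0.069. The values of LN and HN overlapped for all of these, where 4.14% of all genes did not overlap. At an unadjusted limma p of 0.05 there were 0 of them. With PEX11A it was 1 of the 11 peroxins (9.09%), against 6.05% of all genes. Leaving out 1 fetus moved PEX2 to 0.048 (without L5) or 0.44 (without L9) and PEX6 to -0.12 (without L6), and the sign of PEX3 and PEX7 turned. Another probe of PEX7 gave 0.47 without overlap, against -0.13 for the representing probe.

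The lipid handling genes were all lower in LN, 5 of 5, against 48.4% of all genes, with a median of -0.40 (range -0.75 to -0.050). However, 0 had an unadjusted p of 0.05 or less by limma, against 6.05% of all genes, and single fetuses set the sizes. The median was -0.13 without LN fetus L8, -0.17 without L6 and -0.18 without L5.

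ANGPTL4, a secreted inhibitor of lipoprotein lipase, was 9.33, 8.89, 9.27 and 9.23 in LN and 8.82, 11.28, 8.65 and 10.96 in HN. HN was split, with L2 and L10 far above every LN fetus and L1 and L3 below every one of them. The difference was -0.75 (SE 0.59, limma adjusted p = 0.852, exact permutation p = 0.429), and it ran from -1.17 without L3 to -0.30 without L2. The SD of 1.39 in HN exceeded the difference.

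FABP1, the fatty acid-binding protein of hepatocytes, was 16.60, 14.83, 16.12 and 16.44 in LN and 16.40, 16.36, 16.84 and 16.61 in HN. LN fetus L6 stood well below the other 7 fetuses. The difference of -0.56 (SE 0.36, limma adjusted p = 0.824, exact permutation p = 0.229) was -0.17 without L6, and a second probe gave -0.62.

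PDK4, a kinase that shuts pyruvate out of the citrate cycle while fat is burned, showed the opposite in L6. It was 12.97, 10.19 and 11.04 in LN fetuses L6, L8 and L9, lowest of all in L5, and 11.83, 10.99, 11.14 and 11.83 in HN. L6 was the highest of the 8 fetuses, and L5 and L8 were the lowest. The difference was -0.40 (SE 0.60), and it was -1.04 without L6 and -0.050 without L5. All 8 probes of PDK4 were lower in LN on average, by -1.09 to -0.30. The lipid droplet protein PLIN2 and the fatty acid transporter CD36 differed by -0.070 and -0.050, less than their SEs, and the sign of both turned when 1 fetus was left out.

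Across the 8 fetuses, 0 of the 10 pairs of these genes had an exact permutation p of at most 0.05, before or after adjustment over the pairs, for Pearson's or Spearman's correlation. The pair with the highest rho was ANGPTL4 and CD36, with r = 0.55 (exact permutation p = 0.131, adjusted 0.653) and rho = 0.71 (exact permutation p = 0.0578, adjusted 0.578). Without L2 and L10, the fetuses farthest from the median of ANGPTL4, r was 0.35. FABP1 and PDK4 had r = -0.62 (exact permutation p = 0.117, adjusted 0.653) but rho = -0.084 (exact permutation p = 0.851, adjusted 0.964), and r was 0.29 without L6 and L3. The r of that pair rests on those fetuses.

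Fetuses of a group differed from each other as well. The deviation of each fetus from the mean of the 8 fetuses was taken gene by gene, and its median over the 47 genes was 0.18 in HN fetus L10 and between -0.10 and 0.054 in the other 7. L10 was above the mean for 38 of the 47 genes and the highest of the 8 for 18. Over the 47 genes HN fetus L3, at -0.10, was the lowest of the 8, so HN held both extremes. Over all 10860 genes the medians lay between -0.016 and 0.017. There L10 was above the mean for 5184 genes and the highest for 1618. In further lists of these pathways, described below, L10 was also highest, at 0.24 for mitochondrial, 0.071 for peroxisomal and 0.19 for PPAR genes.

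The median deviation of L10 was 0.36 over the 17 mitochondrial genes, 0.39 over the 11 peroxisomal oxidation genes and 0.43 over the 5 lipid handling genes, the highest of the 8 fetuses in each. It was 0.087 over the peroxins and -0.11, the lowest of the 8, over the 3 acyl-CoA synthetases. L3 was low in mitochondrial oxidation, at -0.22, and below the mean for all but 1 of the 17 genes. LN fetus L8 was above the mean there, at 0.13, and LN fetuses L5, L6 and L9 lay at -0.087, -0.17 and -0.16.

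**Figure D4:**
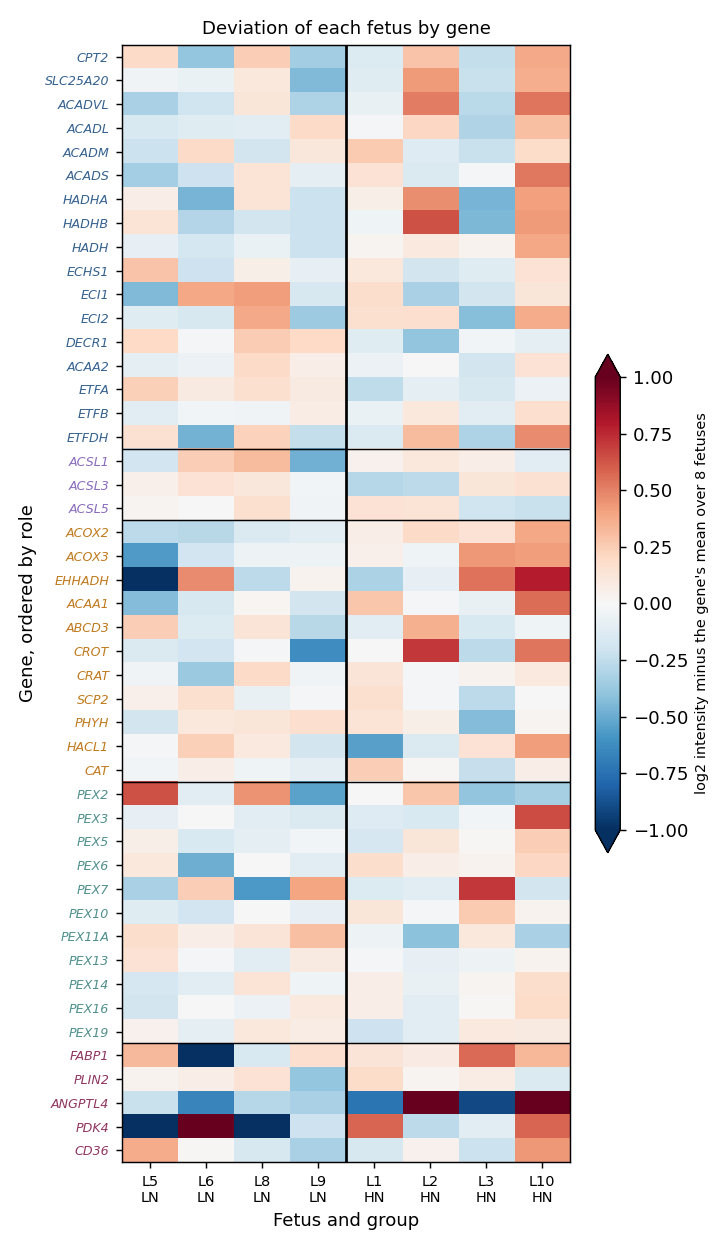
Log2 intensity of each gene in each fetus minus the mean of the gene over the 8 fetuses, from blue (lower) to red (higher), with genes grouped by role and LN left of the line. The scale ends at -1 and 1, and 7 of 376 values lie beyond it. The column of L10 is red for 38 of the 47 genes, and that of L3 is blue for most mitochondrial genes.

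**Figure D5:**
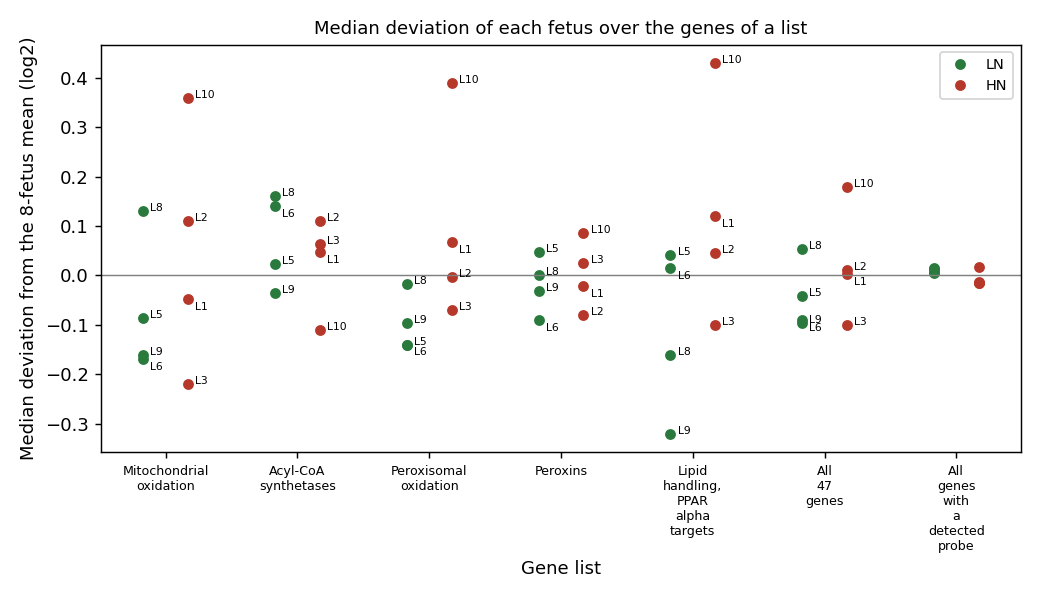
Median deviation of each fetus from the mean of the 8 fetuses, in log2 intensity, over the genes of each role, over all 47 genes and over all genes with a detected probe. LN is green and HN red. L10 lies at 0.36 and 0.39 in mitochondrial and peroxisomal oxidation, above every other fetus, and the medians over all genes lie close to 0.

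Other genes of the same pathways were listed by hand, 124 in all, of which 105 had a detected probe. Of these 63 (60%) were lower in LN, against 48.4% of all genes, with a median difference of -0.085. An unadjusted p of 0.05 or less by limma was found for 8 (7.62%), 5 lower and 3 higher, against 6.05% of all genes. By limma, 0 passed an adjusted p of 0.05 (lowest limma adjusted p = 0.760). Further mitochondrial genes were near 0, with 8 of 15 lower and a median of -0.056, and genes that handle propionate, a main fuel of ruminants, had 3 of 9 lower and a median of 0.080. Among the thioesterases, which free fatty acids from coenzyme A, ACOT2 differed by 0.43 (unadjusted limma p = 0.0219, exact permutation p = 0.0571), ACOT4 by 0.57 (unadjusted limma p = 0.0315, exact permutation p = 0.0857), ACOT13 by 0.13 and ACOT8 by -0.27, each with overlap between the groups. ACOT13 and ACOT8 are named here after their values were seen.

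Of 35 further peroxisomal genes 20 were lower, with a median of -0.040. The bifunctional enzyme HSD17B4, which follows ACOX2 in bile acid synthesis, was 0.21 higher in LN without overlap (limma adjusted p = 0.798, exact permutation p = 0.0286), although 1 of its 3 probes gave -0.22. PIPOX, which oxidises pipecolic acid and sarcosine, differed by -0.81 (unadjusted limma p = 0.0159, exact permutation p = 0.0571).

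Receptors of the PPAR family and their further targets had 32 of 46 genes lower and a median of -0.18. PPARA itself was 5.36, 6.54, 5.79 and 6.25 in LN and 5.83, 5.53, 6.69 and 6.02 in HN, a difference of -0.033 (SE 0.31, limma adjusted p = 0.990) with overlap between the groups. At an unadjusted limma p of 0.05 there were 5 of the 46 (10.9%, against 6.05% of all genes), which were PCK1 (-1.98), UCP2 (-0.76), APOA5 (-0.59), PLTP (-0.58) and PLIN1 (0.39). The groups overlapped for all 5, with exact permutation p of 0.0857, 0.143, 0.0571, 0.0571 and 0.0857 in that order. The study names PIPOX, PCK1 and APOA5 from fetuses that include these, so their differences are not independent of that choice. It also reports PIPOX, PCK1 and APOA5 as lower in LN by qPCR in a larger set of fetuses.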

How the data were processed

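The authors deposited scanner files of Agilent Feature Extraction 11.0.1.1, which hold a background-subtracted processed intensity per spot and are not normalized between arrays. A deposited table of log2 values (31068 probes) served as an alternative. Quantile normalization in GeneSpring GX is named in the paper's methods, and no array test. Here control and outlier spots were dropped and log2 intensity was quantile normalized (43637 probes). Detection meant well above background on 4 or more of the 8 arrays (33439 probes). Arrays had 43803 spots each, 32635 to 34369 of them well above background and 0 saturated, and precision is limited by the number of arrays.

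Genes were named through the RefSeq table of assembly ARS-UCD2.0, which 26740 probes matched. Coordinates are left out because the array design rests on UMD 3.1. Levels were not compared between probes. The test of LN against HN was limma 3.58.1 (R 4.3.3, lmFit with eBayes, 2-sided), with Benjamini-Hochberg adjustment over all detected probes, and it was tested on simulated data. Exact permutation tests were 2-sided, over all divisions of the 8 fetuses. Correlations were permuted over all orders of the 8 fetuses, with ranks from scipy 1.17.1. The p-values measure the spread between these fetuses. Slide could not enter a model.

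Values in every fetus are given for genes of the set with an unadjusted p of at most 0.05, no overlap between groups or a difference of at least 0.5 in size, and for those of the set that the paper names. PDK4 was added after its values were seen. Of the other pathway lists, genes at that p or without overlap are named, with PPARA. The members, the other gene lists and the markers were chosen with earlier results of these data known. Some genes of these pathways are not reported here. Alternatives were another scaling (each array's 75th percentile), another background correction (normexp, offset 50), the deposited log2 values, other filters on dim probes (none, or detection on all arrays), trend and robust options of eBayes, a block for slide position, averaging of a gene's probes, and leaving out each fetus.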

Additional observations from a re-analysis of the deposited data

Results flagged for a closer look

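In groups of 4 fetuses, the highest or lowest value was checked for its distance from the others, over the genes named by rule and over the median deviation of each role, and 1 of 48 groups stood out, where chance gives about 1 in 20. For PCK1, which is not one of the 47 genes, LN fetus L5 had 6.44 and the nearest LN fetus 7.82, a gap of 0.857 of the range of the group.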

How the results depend on the processing

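Under each of 16 alternatives the median over the 47 genes stayed below 0, between -0.13 and -0.042, and the number of genes lower in LN between 29 and 36. The number passing an adjusted p stayed at 0. The number at an unadjusted limma p of 0.05 depended most on the setting: it was 3 with slide position as a block (without ETFA and PEX11A, with 4.61% of all genes called), 8 with the mean over detected probes (6.8% of all genes), and 1 to 8 with each fetus left out in turn (3.76% to 7.76% of all genes). With scaling to the 75th percentile, it was 6 (7.11% of all genes), the median over the 47 genes was -0.094 and that over all genes -0.023. Genes without overlap numbered 3 with normexp background correction and 8 without LN fetus L8. The share of all genes without overlap under these settings is not given. With 1 fetus fewer, groups separate more easily for every gene, so that count cannot be set against the count over all fetuses. Each of the 9 genes named by the rule kept its sign under every alternative, but most were named from these same values. For ACOX2, ACOX3, HADH, DECR1 and ETFA, which do not overlap, leaving out 1 fetus could not turn the sign. The block for slide position sets 1 LN array beside 1 HN array. The groups share no replicate number, so fetuses were not paired by number. With 4 fetuses a group, selected by weight and confounded with slide, 0 differences passed adjustment, which does not show that the genes are equal in LN and HN. The causes of these shifts were not tested.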

Other observations

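HN fetuses L2 and L10 held the highest values of the 8 fetuses, as a pair, for 13 of the 47 genes (27.7%), against 6.03% of all 10860 genes. The 13 genes were CPT2, SLC25A20, ACADVL, ACADL, HADHA, HADHB, HADH, ETFB and ETFDH of mitochondrial oxidation, ACOX2 and CROT of peroxisomal oxidation, PEX5 and ANGPTL4. This count was made after the values were seen, and no test was run on it. Genes of 1 pathway and 1 array are not independent of each other.

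With each fetus left out in turn, 33 of the 47 genes kept the sign of their difference, 25 of them lower and 8 higher in LN, and 14 turned. For the 5 genes without overlap the sign could not turn.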
